A study of Mus musculus with 9 samples.

Results

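Keratins and epithelial identity genes were followed in cultured mouse fibroblasts, with 10 genes chosen by name from the 51912 genes of the deposited count table. The 6 genes of simple epithelium were Krt8, Krt18, Krt7, Krt19, Epcam and Esrp2, and the 4 genes of stratified epithelium were Krt5, Krt14, Sfn and Lgals7. RNA was sequenced in 9 libraries, 3 for each of 3 groups. The first group, bcatKO_CAF, was cancer-associated fibroblasts, that is fibroblasts of the tumour stroma, with the genotype label beta-catenin -/-. The second, CAF, was cancer-associated fibroblasts labelled wild type, and the third, NF, was normal fibroblasts labelled wild type. All were of strain C57BL/6 and were kept in DMEM with serum and antibiotics. The sources used here do not give how the deletion was made, the age of the animals or the tissue of origin. They also do not say whether the 3 replicates of a group were separate cultures or animals, and the spread behind each p-value is that between these samples, possibly technical.

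Keratins are the intermediate filament proteins of epithelial cells. A filament is built from pairs of 1 type I and 1 type II chain, so that simple epithelia typically pair type II Krt8 with type I Krt18 and basal cells of stratified epithelia pair type II Krt5 with type I Krt14. Krt7 is a type II keratin of ducts, bladder and mesothelium, and Krt19 is a small type I keratin of simple and some basal epithelia. Epcam is an adhesion protein of the surface of simple epithelia, and Esrp2 is an RNA-binding protein that sets epithelial splicing patterns. Sfn encodes 14-3-3 sigma, an adaptor protein of keratinocytes that is also a target of p53, and Lgals7 encodes galectin-7, a sugar-binding protein of stratified epithelia. Fibroblasts are usually regarded as lacking keratins and as relying on vimentin for their intermediate filaments.

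RefSeq promoter entries (build GRCm38.p6) matched 8 of the 10 genes. The 250 bases before each RefSeq start were searched on both strands for 6 motifs. By GENCODE positions, the windows of Krt7, Krt14 and Lgals7 lie inside the gene, and those of Krt8 and Krt18 lie partly inside it. The windows of Krt18, Krt5, Sfn and Lgals7 are printed, up to the point where a GENCODE exon of the same gene begins. Krt19 and Esrp2 had no entry. Capitals mark motif matches, and each sequence reads 5′ to 3′ on the strand of its gene.

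Krt18, chr15:102027966-102028179, plus strand: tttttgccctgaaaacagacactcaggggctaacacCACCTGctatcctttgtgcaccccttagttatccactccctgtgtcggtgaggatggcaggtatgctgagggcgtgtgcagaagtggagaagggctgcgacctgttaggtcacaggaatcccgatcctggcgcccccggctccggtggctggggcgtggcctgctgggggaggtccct

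Krt5, chr15:101712906-101713155, minus strand: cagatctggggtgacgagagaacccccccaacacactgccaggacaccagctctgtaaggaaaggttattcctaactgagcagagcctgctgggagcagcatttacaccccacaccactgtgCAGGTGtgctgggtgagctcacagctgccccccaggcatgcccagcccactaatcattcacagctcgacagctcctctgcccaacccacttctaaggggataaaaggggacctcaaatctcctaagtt

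Sfn, chr4:133602169-133602418, minus strand: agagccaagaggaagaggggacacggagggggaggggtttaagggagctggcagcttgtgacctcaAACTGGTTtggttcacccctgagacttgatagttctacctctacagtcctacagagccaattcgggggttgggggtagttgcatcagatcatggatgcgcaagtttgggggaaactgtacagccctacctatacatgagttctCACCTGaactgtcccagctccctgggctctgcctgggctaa

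Lgals7, chr7:28864136-28864228, plus strand: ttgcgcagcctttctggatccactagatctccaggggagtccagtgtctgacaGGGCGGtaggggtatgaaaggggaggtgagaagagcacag

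The E-box CAGGTG, a sequence bound by the ZEB and SNAI repressors, matched in the windows of Krt7, Krt8, Krt18, Epcam, Krt5 and Sfn, and in 17.2% of the 32851 promoter windows of the same length. The GRHL motif AACCNGTT matched in Sfn, as AACTGGTT on the printed strand, and in 1.79% of windows. The GC box GGGCGG matched in Krt7, Epcam and Lgals7 and in 32.7% of windows. The AP-1 motif TGANTCA, the TCF/LEF motif CTTTGAT and the TATA motif TATAAA had no match in the windows of the 8 genes, against shares of 6.75%, 3.21% and 12.4% of all windows. No motif match overlapped another. All matches of Krt7 and the match of Krt8 lay past the point where a GENCODE exon of the same gene begins. A match is a description of the letters and does not show a bound site.

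Libraries held 15433810 to 21893574 counts, and 3 counts in 1 library corresponded to 0.128 to 0.193 CPM (counts relative to TMM-scaled library size). Of all genes, 14314 passed the expression filter of edgeR and were tested by its quasi-likelihood fit over the 9 libraries, and calls below are adjusted p-values under 0.05 over all of them. Ctnnb1, the gene of beta-catenin, stood at 667.6, 636.9 and 627.1 CPM in bcatKO_CAF, at 855.1, 882.1 and 857.6 in CAF and at 712.7, 799.2 and 668.5 in NF. Counts per gene include any exon left by a deletion, so these levels do not check the genotype label, and directions below are those of the libraries labelled bcatKO_CAF. NF replicate 1 stood apart from its group. Its chi-square per gene between libraries was 21.9 to 29.4 against the bcatKO_CAF libraries, but 146.3 and 169.5 against NF replicates 2 and 3. NF replicates 2 and 3 were not a close pair either, with 99 between them. The value was 95.45 between NF replicate 2 and bcatKO_CAF replicate 2, and 96.26 between NF replicate 3 and bcatKO_CAF replicate 1. Comparisons of bcatKO_CAF with NF should be read with that. Of 12 fibroblast markers, all tested, 10 were called lower in bcatKO_CAF than in CAF, where 22.7% of all tested genes were called lower. Also 10 were called higher in CAF than in NF, where 20.0% of all tested genes were. Thy1 passed the filter through the CAF libraries, in which it is high, so these counts are not free of the filter. Their summed level, most of it from Col1a1 and Col1a2, was 1452 to 1643 CPM in bcatKO_CAF, 33680 to 51900 in CAF and 1172 to 1227 in NF. Thy1, a surface marker of fibroblasts, stood at 0.193, 0.467 and 0.0577 CPM in bcatKO_CAF, at 1755, 2187 and 1939 in CAF and at 0.634, 0.0426 and 0.492 in NF. Other markers stayed present in every group: Pdgfra averaged 300.5 CPM in bcatKO_CAF, 577.3 in CAF and 279.1 in NF. Pdgfra was called lower in bcatKO_CAF than in CAF and higher in CAF than in NF (edgeR adjusted p = 0.00753 and 0.00457). Fap and Dcn were not called in bcatKO_CAF relative to CAF (edgeR adjusted p = 0.501 and 0.0848). Dcn was called there without a filter, with only the 6 samples compared or without NF replicate 1, and stood at 90.0, 84.9 and 6.06 CPM in bcatKO_CAF.

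Of the 10 epithelial genes, 6 passed the filter: Krt7, Krt18, Krt19, Esrp2, Sfn and Lgals7. The first 4 of these passed through the CAF libraries, in which they are high, so their call count carries no weight of its own. Krt8, Epcam, Krt5 and Krt14 were not tested. Between bcatKO_CAF and CAF, 2 of the 6 tested genes were called higher and 4 lower, where 44.2% of all tested genes were called, 21.5% higher and 22.7% lower. Between CAF and NF, 3 were called higher and 2 lower, where 39.9% of all tested genes were called, 20.0% higher and 19.9% lower. Genes with all 3 libraries of one group above all 3 of the other were also common: 32.4% of tested genes lay higher in this way and 33.3% lower in bcatKO_CAF relative to CAF, 24.6% and 23.6% in CAF relative to NF, and 3.23% and 3.64% in bcatKO_CAF relative to NF. With so many genes called in both directions, such counts say little about these genes as a list, and the sizes of their differences are given instead. The same shares apply to the lists below, in which some genes also passed the filter only through the groups in which they are high. The 2 comparisons share the CAF libraries, so a gene that differs in CAF alone appears in both with opposite signs. The bulk libraries cannot tell fewer cells of a type from less RNA per cell.

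**Figure D1:**
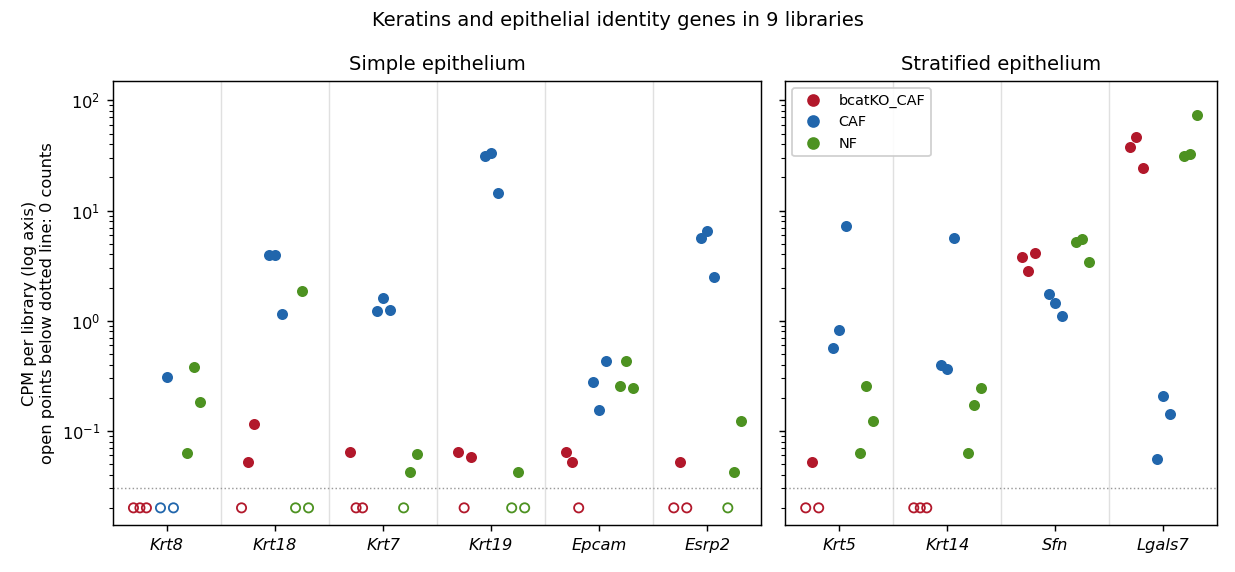
CPM of the 10 genes in each of the 9 libraries, on a log axis, with simple epithelium on the left and stratified epithelium on the right; each point is 1 library, and open points below the dotted line are libraries with 0 counts. Krt19, Esrp2 and Krt7 lie above both other groups in CAF, Lgals7 and Sfn lie below both in CAF, and single libraries stand out for Krt5 and Krt14 (1 CAF library) and for Krt18 (1 NF library).

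Among the simple epithelial genes, Krt19 had the highest level. It lies on chromosome 11 from 100140810 to 100148665, minus strand, on GRCm38 like the positions below. It had 1, 0 and 1 counts in bcatKO_CAF, against 556, 639 and 301 counts in CAF, or 31.2, 33.1 and 14.4 CPM. In NF it had 0, 1 and 0 counts. CAF lay above both other groups without overlap, with CAF replicate 3 lower than the others. Krt19 fell in bcatKO_CAF relative to CAF, with a log2 fold change of -9.18 ± 0.65 (SE, edgeR adjusted p = 8.68e-06). In CPM it was 671.3-fold lower there than in CAF, with a 95% exact binomial counting interval of 185.5 to 5549, or 423.3-fold without bcatKO_CAF replicate 2. It rose in CAF relative to NF, with a log2 fold change of 10.06 ± 0.69 (edgeR adjusted p = 7.54e-06). The single count in NF makes that ratio uncertain, at 1429-fold with an interval of 256 to 56470, and without NF replicate 2, which holds that count, the ratio was at least 275-fold.

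Esrp2 followed the same order of groups. It spans chromosome 8 from 106130319 to 106136974, minus strand. It had 0, 1 and 0 counts in bcatKO_CAF, against 101, 126 and 52 in CAF (5.66, 6.52 and 2.48 CPM), and NF had 0, 1 and 2. It fell in bcatKO_CAF relative to CAF, with a log2 fold change of -7.56 ± 0.86 (edgeR adjusted p = 0.000134), a ratio of 250.4-fold with an interval of 44.6 to 9926. Without bcatKO_CAF replicate 2 the ratio was at least 52.6-fold. It rose in CAF relative to NF by 6.32 ± 0.75 (edgeR adjusted p = 0.000172), a ratio of 88.8-fold (30.1 to 433.3), or 188.4-fold without NF replicate 3. The gene shares 219 of its 4340 exon bases with Nfatc3 on the opposite strand, which averaged 59.6, 118.5 and 72.0 CPM in bcatKO_CAF, CAF and NF. The sources used here do not give the strand setting of the counting, so reads in the shared bases cannot be assigned, and their part in the Esrp2 counts was not tested. Esrp1, the paralogue of Esrp2, had at most 4 counts in any library.

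Krt7 was lower in level and close across CAF libraries. It spans chromosome 15 from 101411043 to 101430313, plus strand. It had 1, 0 and 0 counts in bcatKO_CAF, against 22, 31 and 26 in CAF (1.23, 1.61 and 1.24 CPM), and NF had 0, 1 and 1. CAF did not overlap either group. Krt7 fell in bcatKO_CAF relative to CAF, with a log2 fold change of -5.71 ± 0.76 (edgeR adjusted p = 0.000343), a ratio of 70.9-fold (12.4 to 2836) that came to 44.7-fold without bcatKO_CAF replicate 2 and at least 16.6-fold without replicate 1, which holds its only count. It rose in CAF relative to NF (edgeR adjusted p = 0.000425), at a ratio of 37.7-fold (10.1 to 316.9).

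Krt18 was high in CAF too, but a single NF library overlapped. It spans chromosome 15 from 102028180 to 102032027, plus strand, and its start region is the first sequence above. It had 0, 1 and 2 counts in bcatKO_CAF and 70, 77 and 24 in CAF (3.92, 3.99 and 1.15 CPM), while NF had 0, 44 and 0. The 44 counts of NF replicate 2, at 1.88 CPM, lay above CAF replicate 3. Krt18 fell in bcatKO_CAF relative to CAF, with a log2 fold change of -5.56 ± 1.59 (edgeR adjusted p = 0.0186), a ratio of 51.2-fold (17.2 to 250.5), or 102.5-fold without bcatKO_CAF replicate 3. That call was lost without bcatKO_CAF replicate 1 or 2 or CAF replicate 2, with adjusted p-values of 0.0652, 0.0664 and 0.0536. CAF and NF differed by a log2 fold change of 2.15 ± 1.15, which did not pass the test (edgeR adjusted p = 0.170). It passed the test without NF replicate 2, at 8.75 (adjusted p = 0.00293), and with limma-voom, at 4.19.

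Krt8, the usual partner of Krt18 and its neighbour 23697 bases away on chromosome 15, did not follow it. It had 0, 0 and 0 counts in bcatKO_CAF, 0, 6 and 0 in CAF and 1, 9 and 3 in NF. All 9 libraries were thus at or below 9 counts, and CAF and NF overlapped. Per length, Krt18 averaged 2.10 RPKM (CPM per kilobase of exon) in CAF against 0.0529 RPKM for Krt8, and CAF replicates 1 and 3 held 70 and 24 counts of Krt18 and none of Krt8. The library with the most Krt8 in each of CAF and NF was also the one with the most Krt18. Without a filter, the log2 fold change of Krt8 was -4.01 in bcatKO_CAF relative to CAF (edgeR adjusted p = 0.171) and -1.04 in CAF relative to NF (adjusted p = 0.553). Krt8 and Krt18 have many processed pseudogenes, and reads could be split or lost among copies, so the values of both are uncertain.

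Epcam was near the floor in every group. It had 1, 1 and 0 counts in bcatKO_CAF, 5, 3 and 9 in CAF and 4, 10 and 4 in NF. CAF and NF overlapped, with a CAF to NF ratio of 0.902 (0.437 to 1.86), so CAF libraries that held Krt19 at 14.4 CPM or more had no more than 0.430 CPM of Epcam. bcatKO_CAF lay below both other groups, and without a filter its log2 fold change relative to CAF was -2.70 (edgeR adjusted p = 0.0535).

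**Figure D2:**
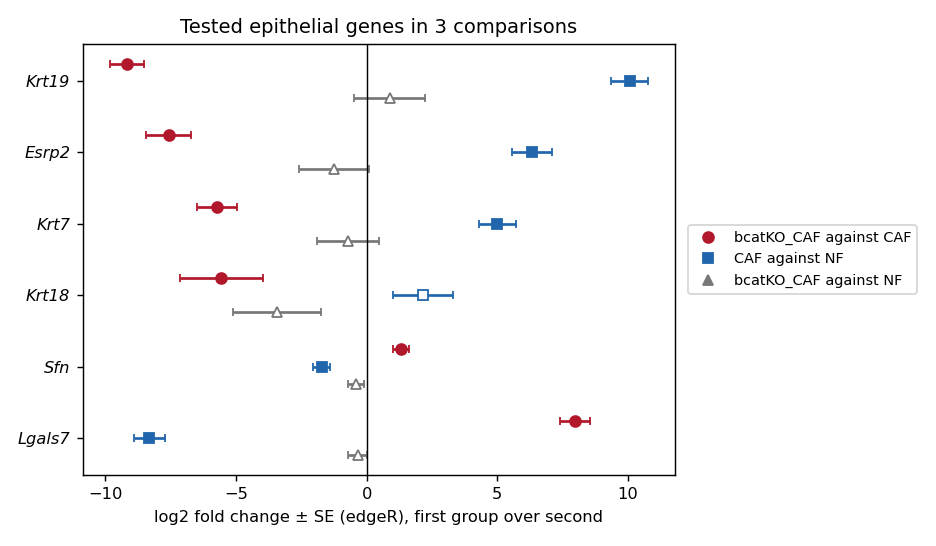
Log2 fold changes with standard errors from edgeR for the 6 tested genes in 3 comparisons, each the first group over the second; filled symbols passed an adjusted p of 0.05. Krt19, Esrp2, Krt7 and Krt18 are negative for bcatKO_CAF against CAF and Sfn and Lgals7 positive, the signs turn for CAF against NF, where Krt18 is open, and all 6 are open for bcatKO_CAF against NF.

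The stratified epithelial genes split into pairs with opposite orders. Lgals7 had the highest level of the 10 genes and was low in CAF. The gene spans chromosome 7 from 28863853 to 28866284, plus strand. It had 586, 906 and 420 counts in bcatKO_CAF, or 37.7, 47.0 and 24.3 CPM, against 1, 4 and 3 counts in CAF, or 0.0560, 0.207 and 0.143 CPM. In NF it had 496, 760 and 1190 counts, or 31.4, 32.4 and 73.2 CPM. Every library outside CAF was above 24 CPM, and none of the CAF libraries reached 0.3 CPM.

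Lgals7 rose in bcatKO_CAF relative to CAF, with a log2 fold change of 7.98 ± 0.58 (SE, edgeR adjusted p = 1.03e-05), a ratio of 266.3-fold with a counting interval of 134.9 to 617.7. It fell in CAF relative to NF, with -8.31 ± 0.58 (edgeR adjusted p = 8.37e-06), and the CAF level was 320.2-fold lower (162.2 to 742.4). Between bcatKO_CAF and NF the groups overlapped, with a log2 fold change of -0.33 ± 0.36 (edgeR adjusted p = 0.691).

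Sfn had the same order of groups with a smaller difference. It spans chromosome 4 from 133600556 to 133602168, minus strand. It had 59, 54 and 72 counts in bcatKO_CAF (3.79, 2.80 and 4.16 CPM), against 31, 28 and 23 in CAF (1.74, 1.45 and 1.10 CPM). NF had 81, 129 and 56 (5.13, 5.50 and 3.44 CPM). CAF was below every other library. Sfn rose in bcatKO_CAF relative to CAF by 1.33 ± 0.32 on the log2 scale (edgeR adjusted p = 0.00794) and fell in CAF relative to NF, with -1.72 ± 0.32 (edgeR adjusted p = 0.00214). Between bcatKO_CAF and NF it differed by -0.39 ± 0.30 (adjusted p = 0.615).

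Krt5 and Krt14, the basal pair, were highest in CAF, and mostly in 1 CAF library. Krt5 spans chromosome 15 from 101707070 to 101712898, and Krt14 spans chromosome 11 from 100203162 to 100207548, both on the minus strand. Krt5 had 0, 1 and 0 counts in bcatKO_CAF, 10, 16 and 152 in CAF and 1, 6 and 2 in NF. Krt14 had 0, 0 and 0 in bcatKO_CAF, 7, 7 and 117 in CAF and 1, 4 and 4 in NF. CAF replicate 3 thus held 7.26 CPM of Krt5 and 5.59 CPM of Krt14, against at most 0.828 and 0.392 CPM in the other CAF libraries, which still lay above all libraries of bcatKO_CAF and NF. Krt5 was 159.8-fold lower in bcatKO_CAF than in CAF (28.3 to 6345), and 36.5-fold without CAF replicate 3. Without bcatKO_CAF replicate 2, which holds its only count there, it was at least 33.6-fold lower. Krt14 was at least 39.2-fold lower in bcatKO_CAF, taking 3 counts over the group as the floor, and at least 6.55-fold without CAF replicate 3. In CAF relative to NF the ratios were 18.9-fold for Krt5 and 13.9-fold for Krt14, and they came to 4.31 and 2.32 without CAF replicate 3. Without NF replicate 2 the ratio of Krt5 was 32.7-fold.

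Neither gene passed the filter, since 3 libraries at the needed level were lacking. Without a filter both were called by edgeR in bcatKO_CAF relative to CAF (adjusted p = 5.36e-05 for Krt5 and 0.000197 for Krt14) and in CAF relative to NF (0.000648 and 0.00490). These p-values are not on the scale of the filtered fit, since Krt18 had 0.000756 there against 0.0186 with the filter. Krt5 passed the filter without any 1 bcatKO_CAF library, with edgeR adjusted p-values of 0.0198 to 0.0216 in bcatKO_CAF relative to CAF. Without any 1 NF library it had 0.0311 to 0.0363 in CAF relative to NF. Without CAF replicate 2 or 3 it did not pass the filter.

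Relative to NF, no epithelial gene was called in bcatKO_CAF, and none of the 14314 tested genes was (0% called), by edgeR with all libraries. At an unadjusted p under 0.05, 0 of the 6 tested epithelial genes and 702 of all tested genes passed. DESeq2 called 6 genes higher and 0 lower, and limma-voom called 0, none of them an epithelial gene. Without NF replicate 1, 1620 genes were called higher and 1039 lower, so the count of 0 rests on that library, which differed less from the bcatKO_CAF libraries than from its own group. Also without it, none of the tested genes among the epithelial genes followed above was called between bcatKO_CAF and NF. The lowest adjusted p among them was then 0.0873, for Krt18 at a log2 fold change of -3.96. Other epithelial genes, described below, were called without that library. Krt12 and Krt13 were then lower in bcatKO_CAF than in NF (edgeR adjusted p = 0.0311 and 0.0321). In the list of stratified epithelium and cornified envelope, 3 genes were called higher and 2 lower. In the list of simple epithelial junction and identity genes, 1 was called higher and 2 lower. Values of the simple epithelial genes in bcatKO_CAF and NF were mostly 0 to 2 counts, where a difference was not detectable at this depth. Krt8, Krt14, Krt5 and Epcam, none of them tested, lay lower in all 3 bcatKO_CAF libraries than in all 3 NF libraries. For Krt5, bcatKO_CAF replicate 2 and NF replicate 1 each had 1 count, so library size alone set their order. For Krt8 and Krt14, NF replicate 1 also had 1 count. Of tested genes, 3.64% lay lower in this way, a share that does not cover these untested genes. Without a filter, the edgeR adjusted p-values of Krt8, Krt14, Krt5 and Epcam were 0.686, 0.700, 0.725 and 0.677.

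The pattern of CAF replicate 3 reached beyond Krt5 and Krt14. Of 13568 tested genes with at least 10 counts in a CAF library, 169 (1.25%) were at least 2-fold above both other CAF libraries in replicate 3. Of 24 genes with such counts in the list of stratified epithelium and cornified envelope, tested or not, 8 were: the desmosomal genes Dsp, Dsg3, Dsc3, Pkp1 and Pkp3, the laminin-332 chains Lama3 and Lamb3, and S100a14. Dsg3, Dsc3, Lamb3 and S100a14 were not tested. The filter can drop genes that are high in a single library, so the share of tested genes is no like background for the list. Dsp, desmoplakin, which links keratin filaments to desmosomes, stood at 1.29, 1.24 and 5.68 CPM in CAF replicates 1 to 3. Krt17, a keratin of skin appendages, had 4, 15 and 52 counts in CAF, and Krt16, a keratin of activated keratinocytes, had 1, 1 and 15. Among genes of simple epithelial junctions with such counts, Cdh1, Cldn1 and Cldn4 were too, with Cdh1, E-cadherin, at 2, 2 and 18 counts. In the same library Krt18, Krt19 and Esrp2 were the lowest of the 3 CAF libraries. The part of other cells in this pattern was not tested.

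NF replicate 2 showed a related pattern, partly in the same genes. Of 13579 tested genes with at least 10 counts in an NF library, 377 (2.78%) were at least 2-fold above both other NF libraries in replicate 2. Of 20 stratified genes with such counts, tested or not, 9 were: Col17a1, Dsp, Evpl, Ivl, Klk10, Lama3, Lor, Pkp3 and Sprr1a. Krt18, Krt16, Krt76 and Krt80 were too. Evpl, Klk10 and Lor were not tested, so here too the share of tested genes is no like background. Dsp, Lama3, Pkp3 and Krt16 were thus high in both CAF replicate 3 and NF replicate 2. These genes were counted for this pattern after the values had been seen.

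**Figure D3:**
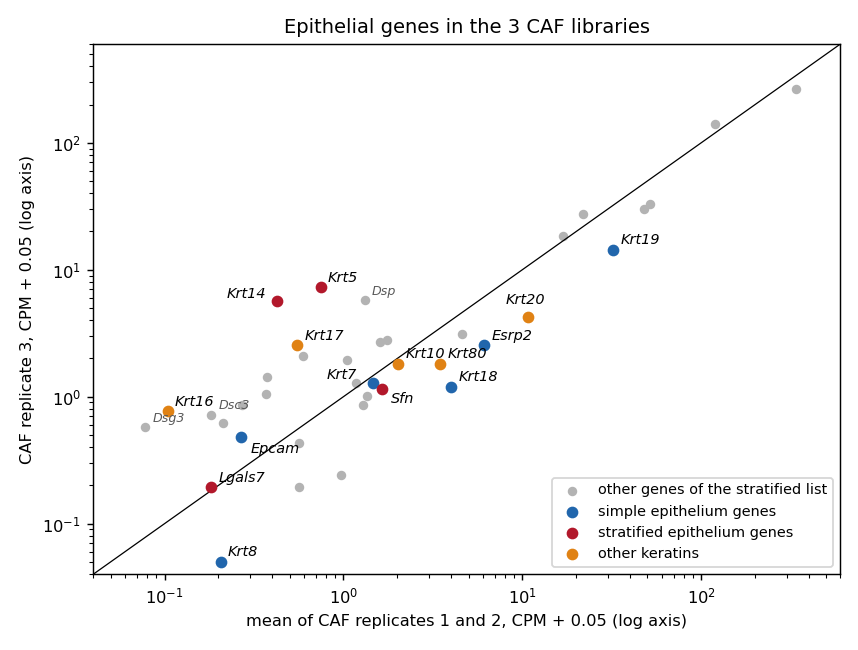
Level of epithelial genes in CAF replicate 3 (vertical axis) against the mean of CAF replicates 1 and 2 (horizontal axis), both CPM + 0.05 on log axes; each point is 1 gene, grey for the list of stratified epithelium with at least 10 counts in a CAF library, and the line marks equal levels. Krt5, Krt14, Krt16 and Krt17 lie above the line with Dsp, Dsg3 and Dsc3, and Krt19, Krt18 and Esrp2 lie below it.

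Summed over the keratin family, the level was 39.6 to 184.1 CPM in bcatKO_CAF, 40.9 to 56.8 in CAF and 66.3 to 487.7 in NF. The table held 50 keratin genes, 26 of type I and 24 of type II, of which 15 had no count in any library and 14 reached 10 counts in at least 1. Of the 44 that are not among the 10 genes above, 6 were tested. Between bcatKO_CAF and CAF, 4 rose (Krt12, Krt13, Krt20 and Krt76) and 1 fell (Krt80), where 21.5% of all tested genes were called higher and 22.7% lower. Between CAF and NF, 1 rose (Krt80) and 4 fell (Krt12, Krt13, Krt20 and Krt76), where 20.0% were called higher and 19.9% lower. Krt80 passed the filter through the CAF libraries, and Krt12, Krt13 and Krt76 through the other groups, in which they are high. These counts therefore carry no weight of their own. Krt10, a keratin of suprabasal epidermis, was not called in either comparison.

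Krt20, a keratin of intestinal and bladder epithelium, was the most abundant keratin of 6 libraries. It had 2573, 3334 and 596 counts in bcatKO_CAF, 219, 175 and 88 in CAF and 926, 4622 and 7483 in NF. All CAF libraries were below all others. It rose in bcatKO_CAF relative to CAF by a log2 fold change of 3.87 ± 0.85 (SE, edgeR adjusted p = 0.00521) and fell in CAF relative to NF, with -4.81 ± 0.88 (edgeR adjusted p = 0.00211), or -3.92 without NF replicate 3. It made up 86.9% to 94.0% of the summed keratin CPM in bcatKO_CAF and 75.5% to 94.4% in NF, while in CAF Krt19 was the most abundant keratin, at 35.1% to 58.3%.

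Krt12, a keratin of the cornea and the neighbour of Krt20 on chromosome 11, had 66, 68 and 19 counts in bcatKO_CAF, 0, 0 and 0 in CAF and 35, 427 and 166 in NF. Its level was at least 56.8-fold higher in bcatKO_CAF than in CAF, and in CAF it was at least 219-fold lower than in NF, with 3 counts over the group as the floor. Krt12 shares 1007 of its 1852 exon bases with the antisense transcript A830036E02Rik, which averaged 4.65 CPM in bcatKO_CAF, 0.0345 in CAF and 5.18 in NF, so without a known strand setting their reads cannot be told apart. Krt13, a keratin of internal stratified epithelia, had 19, 26 and 14 counts in bcatKO_CAF, 0, 1 and 0 in CAF and 16, 99 and 46 in NF. Krt76, a keratin of the oral palate, had 66, 57 and 2 counts in bcatKO_CAF, 0, 0 and 0 in CAF and 23, 716 and 143 in NF. The call of Krt76 in bcatKO_CAF relative to CAF was lost in 6 of 15 alternatives, with adjusted p-values up to 0.105, among them without bcatKO_CAF replicate 1 or 2 or any 1 CAF library. Single libraries also moved fitted folds by over 1.5 times without ending the call. Without NF replicate 2, the log2 fold changes in CAF relative to NF were -9.79 for Krt12 and -9.52 for Krt76, against -10.56 and -10.98 with all libraries. Without CAF replicate 2, which holds its only CAF count, Krt13 had 7.37 in bcatKO_CAF relative to CAF and -8.63 in CAF relative to NF, against 5.56 and -6.82.

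Krt80, a type II keratin next to Krt7 on chromosome 15, went with Krt7. It had 3, 2 and 2 counts in bcatKO_CAF, 47, 81 and 37 in CAF and 1, 13 and 3 in NF. It fell in bcatKO_CAF relative to CAF, with a log2 fold change of -4.34 ± 0.69 (edgeR adjusted p = 0.000925) and rose in CAF relative to NF by 3.29 ± 0.62 (edgeR adjusted p = 0.00244), or by 4.44 without NF replicate 2. On chromosome 11, by contrast, Krt13 and Krt19 lie apart by a single coding gene, Krt15, and had opposite orders of groups. Keratin genes are similar in sequence, and reads of close copies could be split in counting.

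**Figure D4:**
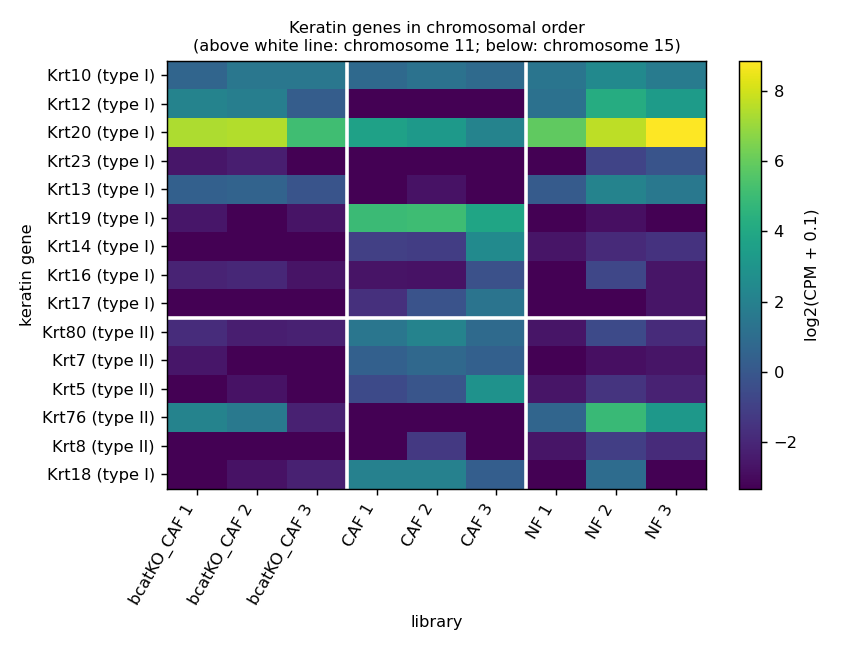
Level of 15 keratin genes in the 9 libraries as log2(CPM + 0.1), with libraries across and genes down the page in chromosomal order, type I or II in brackets; white lines separate the groups and chromosomes 11 and 15. Krt20, Krt12, Krt13 and Krt76 are low in the CAF columns and Krt19, Krt18, Krt7, Krt80, Krt5, Krt14 and Krt17 are high there.

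Since type I and type II chains pair in filaments, their summed levels per length were set side by side. Type I keratins summed to 68.0 ± 41.3 RPKM in bcatKO_CAF, 23.7 ± 5.91 in CAF and 133.8 ± 108 in NF (SD, n = 3 each). Type II keratins summed to 1.10 ± 0.906 RPKM in bcatKO_CAF, 2.05 ± 1.55 in CAF and 6.17 ± 6.79 in NF. Type I exceeded type II in every library. The type I sums of NF lay above all those of CAF, while those of bcatKO_CAF overlapped both other groups, and the type II sums of the 3 groups overlapped. The lengths are those of all annotated exons of a gene, which are long for Krt7 (7049 bases) and lower its level per length.

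**Figure D5:**
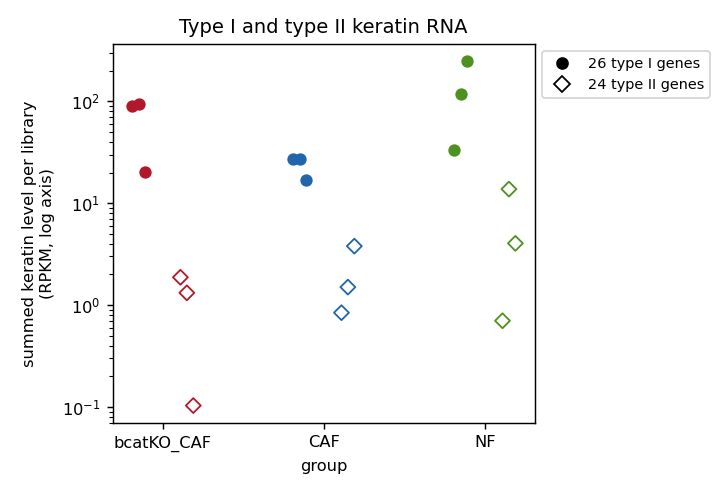
Summed level of the 26 type I keratin genes (filled circles) and of the 24 type II keratin genes (open diamonds) in each library, in RPKM on a log axis. Type I lies above type II in all 9 libraries.

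Junction and identity genes of simple epithelium, from a list of 34 of which 12 were tested, moved both ways. In bcatKO_CAF relative to CAF, 2 were called higher and 7 lower, and in CAF relative to NF, 5 were called higher and 2 lower. Their median log2 fold changes were -1.56 and 0.78, against -0.01 and -0.04 over all tested genes. Cdh3, Spint2 and Pard6b passed the filter through the CAF libraries, in which they are high. These counts and medians therefore carry no weight of their own. Cdh3, P-cadherin, an adhesion protein of basal epithelial cells, averaged 0.0346 ± 0.0599 CPM in bcatKO_CAF, 116.7 ± 41.0 in CAF and 0.0205 ± 0.0355 in NF (SD, n = 3 each). Spint2, an inhibitor of epithelial serine proteases, averaged 0.0214, 3.68 and 0.0627 CPM in bcatKO_CAF, CAF and NF. Pard6b, a polarity protein, averaged 0.114, 4.35 and 0.0995 CPM in these groups. F11r, a tight junction protein also made by other cells, averaged 1.65, 23.7 and 1.27 CPM.

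These 4 genes were called in both comparisons under all alternatives run. Myo5b, a motor of apical transport, had the opposite order. Its call in bcatKO_CAF relative to CAF was lost without bcatKO_CAF replicate 3 or CAF replicate 1 or 3, with adjusted p-values up to 0.0800. Cdh1, E-cadherin, the defining adhesion protein of epithelia, was not tested and averaged 0.286 CPM in bcatKO_CAF, 0.358 in CAF and 0.294 in NF.

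Of 20 transcription factors of epithelial programmes, 6 were tested. In bcatKO_CAF relative to CAF, 3 were called higher and 0 lower, and in CAF relative to NF, 0 were called higher and 4 lower, with 2 lower without CAF replicate 2. Tfap2a, a factor of ectoderm and of keratin gene control, stood at 130.3, 123.7 and 104.0 CPM in bcatKO_CAF, 1.79, 2.59 and 0.669 in CAF and 120.7, 116.8 and 135.0 in NF. Its log2 fold change was 6.15 in bcatKO_CAF relative to CAF (edgeR adjusted p = 4.97e-06). Klf4, a factor of the epidermal barrier, averaged 251.5, 103.3 and 198.0 CPM in bcatKO_CAF, CAF and NF, and Esx1, a factor best known from placenta and testis, had no count in CAF and 11 to 38 counts in the libraries of the other groups. Trp63, the factor that sets basal identity, had at most 5 counts in a library, and Grhl2 and Ovol2 had at most 15 and 1.

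Genes of stratified epithelium and the cornified envelope, a list of 41 with 18 tested, were split. In bcatKO_CAF relative to CAF, 6 rose and 6 fell, and without a filter 10 fell. In CAF relative to NF, 6 rose and 5 fell. Itga6 and Itgb4, the integrin pair of hemidesmosomes, averaged 643.0 and 63.5 CPM in bcatKO_CAF, 23.7 and 2.04 in CAF and 731.2 and 33.3 in NF. Pkp1, a plaque protein of desmosomes, averaged 71.3, 0.417 and 92.9 CPM in bcatKO_CAF, CAF and NF, and Ppl, periplakin, averaged 21.3, 0.0982 and 24.1 CPM. Aqp3, a water and glycerol channel of basal keratinocytes, had 1224, 1364 and 10 counts in bcatKO_CAF, 4, 1 and 7 in CAF and 35, 421 and 3890 in NF. It also rose in bcatKO_CAF relative to CAF and fell in CAF relative to NF, but both calls were lost with limma-voom and without CAF replicate 1 or 2, and the first also without CAF replicate 3, with adjusted p-values up to 0.301 and 0.278. The opposite order held for Jup, plakoglobin, which averaged 6.49, 126.3 and 8.72 CPM, for Pkp2, at 6.78, 41.7 and 6.21 CPM, and for Bnc1, a factor of basal keratinocytes and mesothelium, at 1.37, 45.5 and 2.57 CPM. Dsp was called in the same directions, and lost the call in bcatKO_CAF relative to CAF without bcatKO_CAF replicate 1 or CAF replicate 3, and that in CAF relative to NF without CAF replicate 3 or NF replicate 1 or 3 or with only the 6 samples compared (adjusted p up to 0.0562 and 0.123). The desmosomal genes thus went both ways, with Pkp1 and Ppl in the order of Lgals7 and Jup and Pkp2 in the order of Krt19. The calls of Itga6, Itgb4, Pkp1, Ppl, Jup, Pkp2 and Bnc1 held in both comparisons under all alternatives run.

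Among the other galectins, Lgals3 and Lgals4 had the order of Lgals7. Lgals3, a galectin of many cell types, averaged 687.4 CPM in bcatKO_CAF, 156.5 in CAF and 582.9 in NF, and Lgals4, a galectin of gut epithelium, averaged 2.50, 0.290 and 1.72 CPM. In bcatKO_CAF relative to CAF, 4 of 6 tested galectins rose and 0 fell (1, Lgals9, without NF replicate 3 or with only the 6 samples compared), with the call of Lgals8 lost without bcatKO_CAF replicate 3 or CAF replicate 1 or 2. In CAF relative to NF, 1 rose, Lgals9, and 3 fell, Lgals7, Lgals3 and Lgals4, with 2 higher without NF replicate 3. Of the 7 genes of the 14-3-3 family, Sfn was the 1 called higher in bcatKO_CAF than in CAF with TMM scaling, while total counts as the scaling gave 3 and leaving out NF replicate 1 gave 2. Ywhab and Ywhah were called lower, and the call of Ywhab was lost in 8 of 16 alternatives.

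Of 11 tested genes of other filaments and keratin partners, Nes rose in bcatKO_CAF relative to CAF and Des, Lmnb1 and Fam83h fell, and these 4 turned the other way in CAF relative to NF. Plec, which links filaments to hemidesmosomes, was also called higher in bcatKO_CAF, and lost the call without any 1 bcatKO_CAF library or CAF replicate 1 or 3 (adjusted p up to 0.132). Prph was called lower in CAF than in NF and lost the call in 7 of 14 alternatives. Vim, vimentin, was at 5796, 5018 and 5347 CPM in bcatKO_CAF, 4738, 5796 and 5204 in CAF and 5175, 5143 and 3817 in NF, with no call in any comparison. Des, desmin, a filament of muscle, had 0, 0 and 0 counts in bcatKO_CAF, 77, 116 and 22 in CAF and 0, 1 and 0 in NF. Nes, nestin, averaged 404.5 CPM in bcatKO_CAF, 68.4 in CAF and 406.4 in NF. Per length, Vim stood at 1106 RPKM in CAF, where Krt19 stood at 14.1 RPKM.

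Known repressors of epithelial genes also moved both ways. Of 7 tested, 3 were called higher and 3 lower in bcatKO_CAF relative to CAF, and 3 higher and 2 lower in CAF relative to NF. The 3 lower ones were Snai1, Snai2 and Twist2, which averaged 7.69, 20.8 and 16.0 CPM in bcatKO_CAF, 69.4, 79.1 and 234.6 in CAF and 13.7, 13.5 and 22.2 in NF. They were thus highest in the group in which Krt19, Krt7 and Esrp2 were highest. The call of Snai1 in CAF relative to NF was lost without CAF replicate 2 or NF replicate 2, with adjusted p-values up to 0.0861. Tcf4 had the opposite order, at 554.5 CPM in bcatKO_CAF, 233.0 in CAF and 608.5 in NF. Zeb1 and Zeb2 were called higher in bcatKO_CAF than in CAF, and the calls were lost without single libraries, with adjusted p-values up to 0.148 and 0.124: bcatKO_CAF replicate 2 or 3 and CAF replicate 2 or 3 for both, bcatKO_CAF replicate 1 or NF replicate 3 for Zeb1 and CAF replicate 1 for Zeb2. Zeb1 also lost its call without a filter. It was called lower in CAF than in NF too, and lost that call in 7 of 16 alternatives.

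Markers of other cell types moved with the groups as well. Mesothelial cells make Krt7, Krt8, Krt18 and Krt19, and of 10 mesothelial markers 3 were tested. All 3 were called lower in bcatKO_CAF than in CAF, as were 22.7% of all tested genes. Bnc1, 1 of them, was called higher in CAF than in NF, as were 20.0% of all tested genes. Cldn15 passed the filter with the help of the CAF libraries, in which it is high. The calls of Msln and Cldn15 were lost without single libraries, among them bcatKO_CAF replicate 1 or 3 and CAF replicate 2. Their summed level was 1.16 to 3.22 CPM in bcatKO_CAF, 35.7 to 60.1 in CAF and 2.66 to 5.17 in NF, most of it from Bnc1. Of the defining markers, Lrrn4 and Muc16 were at 0 in every library, and Gpm6a and Upk3b were at 0 in CAF. The others went with the simple keratins at low counts: Wt1 had 0, 0 and 0 counts in bcatKO_CAF, 2, 4 and 8 in CAF and 1, 0 and 0 in NF. Upk1b had 0, 0 and 0 in bcatKO_CAF, 12, 2 and 3 in CAF and 0, 0 and 0 in NF, and Rspo1 had 0, 0 and 0, then 4, 4 and 14, then 0, 2 and 0 in the same groups. The 8 leukocyte markers summed to 18.6 to 25.6 CPM in bcatKO_CAF, 4.68 to 7.23 in CAF and 28.9 to 47.4 in NF, and the 8 endothelial markers to 2.23 to 2.70, 9.22 to 16.7 and 2.34 to 4.50 CPM in these groups. Both sums join genes that moved both ways in bcatKO_CAF relative to CAF. Of 3 tested leukocyte markers, Cd68 was called higher, Csf1r lower and Lyz2 not called. Of 4 tested endothelial markers, Vwf was called higher and Kdr, Tek and Cdh5 lower. For all tested genes the shares were 21.5% higher and 22.7% lower. The calls of Csf1r, Vwf and Cdh5 were lost under some alternatives. Beyond these values, the part of other cell types in the levels of the 10 genes was not tested.

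Across the 9 libraries, the tested genes fell along the order of the groups. Pearson's r of log2 CPM was 0.99 between Krt19 and Krt7, 0.98 between Krt19 and Esrp2, 0.83 between Krt19 and Krt18, 0.88 between Sfn and Lgals7 and -0.99 between Krt19 and Lgals7. The points share their libraries and separate by group, so these values describe the difference between groups again. The 5 genes most like Krt19 were Ildr2, Ctnna2, Sulf1, Galnt5 and Myl9, among 1791 tested genes with r over 0.9 over the 9 libraries. The 5 most like Lgals7 were Vamp2, Cd9, Nptxr, Stac2 and Igfbp3, among 1249.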

How the data were processed

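The authors deposited raw counts of reads for each Ensembl gene in 9 libraries, with no scaling. The submitters' processing notes name bcl2fastq, TopHat, edgeR and build mm10 without versions. The sources used here do not give the counting tool, the annotation or whether strand was used. Symbols matched 51633 of 51912 gene IDs. Positions are those of GENCODE M21 (GRCm38, which is mm10).

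Counts were filtered with filterByExpr and tested with edgeR 4.0.16 (R 4.3.3, quasi-likelihood, TMM, 1 term for group), with Benjamini-Hochberg adjustment. Standard errors came from the F statistic. A CPM ratio carries a 95% exact binomial interval, and a group with no count was set at 3 counts over the group. Intervals and floors cover counting error only. For single genes, the smallest exact two-sided permutation p of 3 against 3 is 0.1, so it was not used for calls. No pair of libraries agreed within sampling noise. The scripts were tested on simulated data. Over the 3 comparisons they recovered 17% to 20% of changes of 1 log2 unit and 66% to 75% of changes of 2. A gene that was not called may therefore still differ.

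Every one of the 10 genes was named. From other lists, up to 4 called genes per direction and comparison with a mean of at least 1 CPM in a group were allowed, and lists of at most 10 could be named whole. Genes with few counts, per-library patterns, neighbours and keratin sums were chosen after their values were seen. Likeness was planned for Krt8 and Krt14, which did not pass the filter, so it is given for Krt19 and Lgals7, chosen after seeing the data. The 10 genes and the lists were chosen with earlier results of these data known. Alternatives were RLE scaling, total counts, no filter, a filter at 1 CPM in 3 libraries, limma-voom (limma 3.58.1), DESeq2 1.42.0, only the 6 samples compared, and leaving out each library. Results of some single genes are not reported here.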

Additional observations from a re-analysis of the deposited data

How the results depend on the processing

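Of 284 results of tested epithelial genes under alternatives, 279 kept their side of the threshold, 3 lost their call and 2 gained one, all 5 for Krt18. Called values changed sign in 0. Among uncalled ones, 2 turned in bcatKO_CAF against NF: Krt18 to 3.19 without NF replicate 2 and Lgals7 to 0.18 without NF replicate 3, against -3.41 and -0.33 with all libraries. The number of epithelial genes called higher in CAF than in NF was 3, and it became 5 without a filter, and 3 to 5 when single libraries were left out, with 5 without NF replicate 2. Between bcatKO_CAF and NF, the count of all genes called higher was 0, but 1 without a filter and 6 with DESeq2, and it ranged from 0 to 1620 when single libraries were left out. The count called lower ranged from 0 to 1039. Total counts as the scaling moved the median log2 fold change of all genes to 0.12 for bcatKO_CAF against CAF and to -0.20 for CAF against NF, from -0.01 and -0.04 with TMM. No paired analysis was possible because the labels give no replicate numbers. Depth limits the simple keratins in bcatKO_CAF and NF, where most libraries held 0 to 2 counts.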
